A study of Mus musculus with 10 samples.

Results

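Mixl1, Eomes, Mesp1, Lhx1, Evx1 and Gsc encode transcription factors of the primitive streak and of the mesoderm that leaves it. The 6 genes were chosen by name, with earlier results of these data known. Each was found among the 55487 genes of the count tables and among the 22596 genes with enough counts to be tested. The data are nuclear RNA-seq libraries of the mouse ES cell line HM-1 and of 4 populations sorted from it during blood differentiation in serum, with 2 libraries per stage and 10 in all. ES cells were grown with LIF and serum and taken before differentiation. Hemangioblast cells (HB) carried FLK1 and were separated with magnetic beads from dissociated embryoid bodies after 3 days. The FLK1+ cells were then kept for 2.5 d in blast culture with VEGF and IL-6 and sorted by flow cytometry into HE1 (KIT+ TIE2+ CD41−) and HE2 (KIT+ TIE2+ CD41+), the first and second stages of the hemogenic endothelium, and into hematopoietic progenitors (HP; KIT+ TIE2− CD41+). HE1, HE2 and HP therefore differ by their gate and not by the day of harvest, and all 5 stages come from 1 cell line. The labels name no deletion and no transgene in any stage.

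In the embryo, Nodal and Wnt signals start the streak, and cells that pass through it become mesoderm or definitive endoderm. The T-box factor Eomes and the homeodomain factor Mixl1 are among the early targets of Nodal signaling, and Eomes is needed for the activation of Mesp1. Blood and vascular precursors arise from the FLK1+ part of this mesoderm, and streak genes are known to be silenced as the cells move on.

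The total on genes ran from 24920434 to 58782055 counts per library, so that 3 counts, taken here as the floor of detection, correspond to 0.0532 to 0.126 CPM. Floors and intervals on counts cover counting error only. Of the sort markers, Kdr, which encodes FLK1, was at 957 and 1284 CPM in HB against 2.43 and 2.70 CPM in ES, and Tek, which encodes TIE2, was at 564 and 294 CPM in HE1, 285 and 159 CPM in HE2 and 61.5 and 64.2 CPM in HP. Itga2b, which encodes CD41, was at 48.0 and 34.5 CPM in HB, 227 and 127 CPM in HE1, 505 and 469 CPM in HE2 and 400.4 and 367 CPM in HP. It was called higher in HE1, whose gate is CD41−, than in HB, and higher again in HE2. Kit was at 164 and 173 CPM in ES, 73.3 and 69.3 CPM in HB, 146 and 73.0 CPM in HE1, 230.3 and 410.3 CPM in HE2 and 363 and 251 CPM in HP. The HE1 libraries were not alike. The summed level of 8 endothelial genes was 4506 CPM in HE1 replicate 1 and 2584 CPM in replicate 2, with 0 of 8 genes higher in replicate 2, whereas 8 of 9 pluripotency genes were higher in replicate 2, with a median ratio of 11.5 and a sum of 129 CPM against 49.6 CPM. All 8 genes of a cardiac muscle list were also higher in replicate 2, with sums of 26.3 and 98.6 CPM. In HE2 replicates 1 and 2 the endothelial sums were 3017 and 2103 CPM, the pluripotency sums 23.2 and 11.9 CPM, the cardiac muscle sums 25.0 and 16.1 CPM and the sums of 8 blood progenitor genes 1023 and 1408 CPM. For the 6 genes, changes that involve HE1 are given below also with HE1 or HE2 libraries left out. In bulk RNA, fewer cells of a kind and less RNA per cell cannot be told apart.

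All 6 genes were up-regulated from ES to HB and then down-regulated between HB and HE1, to at most 0.927% of their HB level in HE1 replicate 1 and at most 2.19% in replicate 2. In replicate 1, Mesp1 and Gsc had 2 counts each, under the floor of 3. Each gene was higher in both HB libraries than in the other 8 libraries. The 6 called increases stand against 11.5% of tested genes called higher and 17.3% called lower in HB than in ES, and the 6 called decreases against 8.19% called lower and 12.7% called higher in HE1 than in HB. Called genes changed at least 2-fold and passed a threshold of 0.05 on the p-value that the quasi-likelihood test of edgeR gave over all 10 libraries, after Benjamini-Hochberg adjustment over all tested genes. The study describes the libraries of a stage as biologically independent, and the p-values measure the spread between them. The HB libraries enter both comparisons, and the 2 changes of a gene are given side by side and not as separate evidence.

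**Figure D1:**
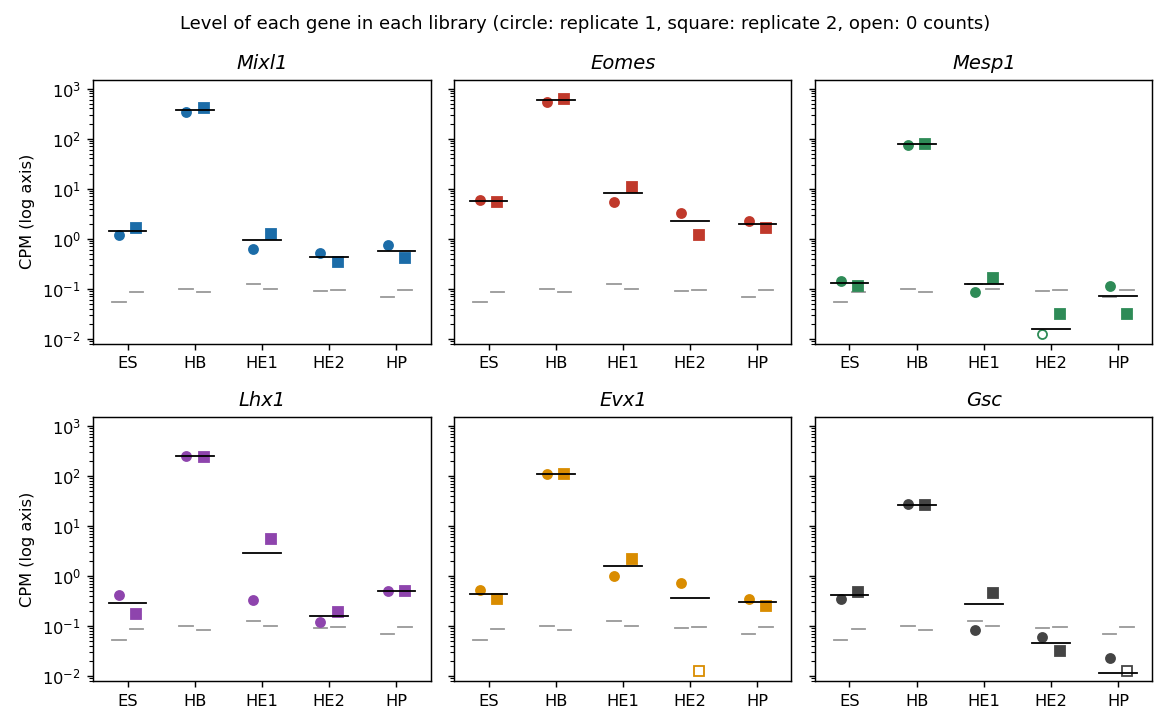
Level of each gene in CPM (log axis) in the 10 libraries, by stage. Circles are replicate 1, squares replicate 2, black lines the mean of the stage, short grey lines the floor of 3 counts of that library, and open symbols at the bottom libraries with 0 counts. In each panel both HB libraries lie above the other 8, and Lhx1 is at 0.336 and 5.38 CPM in the HE1 libraries.

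Eomes, on chromosome 9 of GRCm38 (plus strand, 118478212 to 118486132), was detected at every stage. It was at 5.85 and 5.48 CPM in the ES libraries and at 546 and 630 CPM in HB. After the HB stage, HE1 had 5.43 and 10.97 CPM, HE2 had 3.23 and 1.21 CPM, and HP had 2.28 and 1.62 CPM. The HB values overlap with no other stage, whereas those of HE2 and HP overlap with each other. Both ES values lie between the 2 HE1 values. The log2 fold change was 6.70 ± 0.44 (SE) from ES to HB and −6.15 ± 0.43 from HB to HE1 (edgeR, Benjamini-Hochberg adjusted p = 2.59e-06 and 1.24e-05).

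Mixl1, a paired-type homeodomain factor of the streak on chromosome 1 (minus strand, 180693043 to 180697034), was at 1.19 and 1.66 CPM in ES and at 332 and 406 CPM in HB. In the later libraries it ranged from 0.349 to 1.26 CPM. These 6 libraries lie below or within the range of ES, and the 2 HE1 values, 0.631 and 1.26 CPM, differ by a factor of 1.99. The log2 fold change was 8.04 ± 0.33 from ES to HB and −8.57 ± 0.35 from HB to HE1 (edgeR, Benjamini-Hochberg adjusted p = 3.57e-07 and 1.41e-06).

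Mesp1, a bHLH factor of nascent mesoderm that marks precursors of the heart and vessels, lies on chromosome 7 (minus strand, 79792241 to 79793788). It was near the floor in every library outside HB, with 8 and 4 counts in ES. HE1 held 2 and 5 counts, HE2 held 0 and 1, and HP held 5 and 1. In HB it had 2258 and 2784 counts, or 74.7 and 78.4 CPM. The single count over both HE2 libraries is 0.0203% of the HB level, with an exact 95% Poisson interval from 0.000514% to 0.113%. The log2 fold change was 9.15 ± 0.37 from ES to HB and −9.17 ± 0.39 from HB to HE1 (edgeR, Benjamini-Hochberg adjusted p = 3.57e-07 and 1.62e-06). Mesp2, its neighbor and paralog 16939 bases away, reached 5.55 and 5.10 CPM in HB, and how read pairs that fit both genes were divided is uncertain.

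Lhx1, a LIM-homeodomain factor of the anterior streak and the mesendoderm, lies on chromosome 11 (minus strand, 84518284 to 84525535). It was at 0.408 and 0.172 CPM in ES and at 255 and 235 CPM in HB, with a log2 fold change of 9.61 ± 0.89 (edgeR, Benjamini-Hochberg adjusted p = 2.06e-05). The 95% interval, from 7.63 to 11.58, includes the 9.15 of Mesp1, and leaving out ES replicate 1 gave a fitted value of 10.46 and leaving out replicate 2 one of 9.23. The HE1 libraries held 8 and 163 counts, or 0.336 and 5.38 CPM, so that the fitted change from HB to HE1 was −6.37 ± 0.74 with both and −9.49 ± 0.40 without replicate 2 (edgeR, Benjamini-Hochberg adjusted p = 0.000183 and 9.84e-06). HE2 was at 0.122 and 0.190 CPM and HP at 0.502 and 0.509 CPM.

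Evx1, an even-skipped-type homeodomain factor of the posterior streak, lies on chromosome 6 (plus strand, 52313498 to 52318378). It was at 0.514 and 0.344 CPM in ES, 107 and 111 CPM in HB, and 1.01 and 2.15 CPM in HE1. Both HE1 values lie above the ES values. The HE2 libraries held 24 and 0 counts, where 0 counts in replicate 2 allow up to 0.0952 CPM, and HP was at 0.342 and 0.254 CPM. The log2 fold change was 7.93 ± 0.69 from ES to HB and −6.08 ± 0.62 from HB to HE1 (edgeR, Benjamini-Hochberg adjusted p = 1.39e-05 and 8.75e-05).

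Gsc, a homeodomain repressor of the anterior streak and the organizer, lies on chromosome 12 (minus strand, 104471209 to 104473330). It was at 0.355 and 0.488 CPM in ES and at 27.4 and 26.1 CPM in HB, with a log2 fold change of 6.0 ± 0.51 (edgeR, Benjamini-Hochberg adjusted p = 1.22e-05). In HE1 it fell to 2 and 14 counts, a log2 fold change of −6.52 ± 0.55 (edgeR, Benjamini-Hochberg adjusted p = 2.84e-05). HE2 held 2 and 1 counts and HP 1 and 0. The single count over both HP libraries is 0.0497% of the HB level, with an exact 95% Poisson interval from 0.00126% to 0.277%.

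Per kilobase of exon, the order of the HB levels was Mixl1 with 161 ± 22.8 CPM per kb (SD, n = 2), Eomes with 142 ± 14.3, Lhx1 with 60.3 ± 3.46, Mesp1 with 60.0 ± 2.09, Evx1 with 37.9 ± 0.934 and Gsc with 21.1 ± 0.719. The libraries of Mixl1 (145 and 177 CPM per kb) and Eomes (131 and 152) overlap, as do those of Lhx1 (62.7 and 57.8) and Mesp1 (58.6 and 61.5). Within each HB library Mixl1 was above Eomes, whereas Lhx1 and Mesp1 changed order between the libraries. With 2 libraries the order within either pair is not settled. The steps from Eomes to Lhx1, from Mesp1 to Evx1, and from Evx1 to Gsc are each larger than the range of the libraries. In ES the order was another one, with Eomes at 1.36 ± 0.0637 CPM per kb, Mixl1 at 0.622 ± 0.147, Gsc at 0.332 ± 0.0741, Evx1 at 0.149 ± 0.0418, Mesp1 at 0.101 ± 0.0151 and Lhx1 at 0.0712 ± 0.0410. The ES libraries of Evx1 and Mesp1 do not overlap, whereas those of Mesp1 and Lhx1 do.

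**Figure D2:**
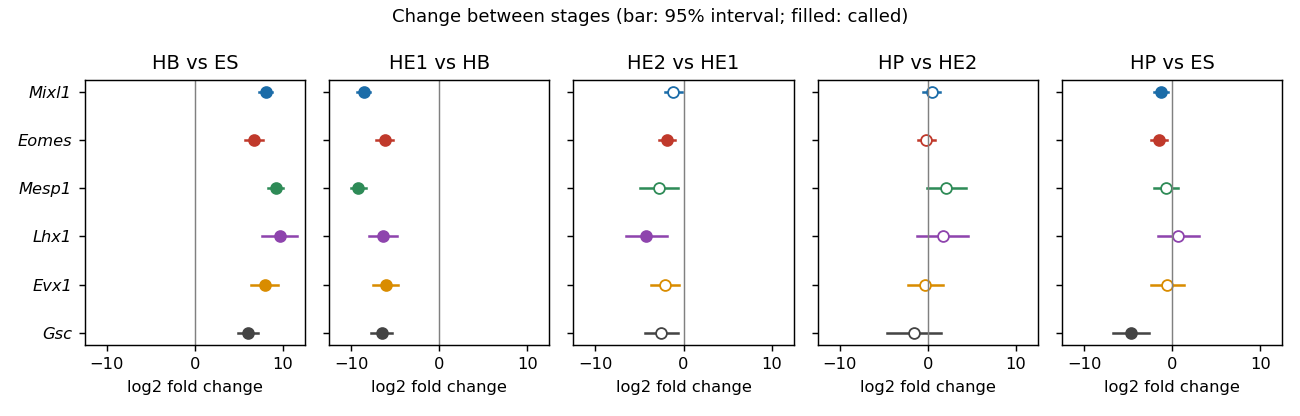
Fitted log2 fold change of each gene in 5 comparisons of stages, with the 95% interval as a bar; filled points were called and open points were not. All 6 points are filled at 6.0 to 9.61 in HB against ES and at −9.17 to −6.08 in HE1 against HB, 2 are filled in HE2 against HE1, 0 in HP against HE2, and 3 in HP against ES.

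The shutdown was followed further through HE2 and HP. HE1 still held more of these transcripts than HE2 for Eomes and Lhx1, which were called lower in HE2, against 5.39% of tested genes called lower and 3.26% called higher. The log2 fold change from HE1 to HE2 was −1.89 ± 0.41 for Eomes and −4.22 ± 1.04 for Lhx1 (edgeR, Benjamini-Hochberg adjusted p = 0.0200 and 0.0301). For Mixl1, Evx1, Mesp1 and Gsc the fitted values were −1.15, −2.10, −2.79 and −2.54 (edgeR, Benjamini-Hochberg adjusted p = 0.0868, 0.0770, 0.0720 and 0.0691), and they did not pass the test. Mesp1 rests on 1 count and Gsc on 3 counts in HE2, so that their fitted values depend on the prior count. With a prior count of 2 they were −1.36 for Mesp1 and −1.73 for Gsc.

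Both calls depended on which libraries were used. Every one of the 6 genes was higher in HE1 replicate 2 than in replicate 1. The difference was 1.99-fold for Mixl1, 2.02-fold for Eomes, 2.13-fold for Evx1 and 16.0-fold for Lhx1. It was 1.96-fold for Mesp1 and 5.50-fold for Gsc, which rest on 2 and 5 and on 2 and 14 counts. Over all tested genes 46.8% were higher in HE1 replicate 2, and among the 1850 genes called lower in HE1 than in HB 52.0% were. Pou5f1, a pluripotency factor, was at 2.82 and 26.3 CPM in the same libraries, and the part of such cells or of other cells in the result was not tested. Without HE1 replicate 2, the change from HE1 to HE2 was −1.29 for Eomes and −1.10 for Lhx1 (edgeR, Benjamini-Hochberg adjusted p = 0.131 and 0.343), and 0 of the 6 genes were called. Without HE2 replicate 2 also 0 of the 6 were called, with −1.33 for Eomes and −4.55 for Lhx1, whose fitted change stayed as large (edgeR, Benjamini-Hochberg adjusted p = 0.123 and 0.180). Without HE2 replicate 1 the genes called were Eomes and Evx1, and Lhx1 was not (−3.91, edgeR, Benjamini-Hochberg adjusted p = 0.0669). Without HE1 replicate 1 there were 5. The calls over all tested genes numbered 1954 with all libraries, 628 without HE1 replicate 2, 422 without HE2 replicate 2, 3207 without HE2 replicate 1 and 4295 without HE1 replicate 1. At an unadjusted p under 0.05 all 6 genes were lower in HE2 with all libraries, against 19.7% of tested genes. Of the 6 there were 1, Eomes, without HE1 replicate 2 (against 11.7%), 4 without HE2 replicate 2 (against 8.24%), 5 without HE2 replicate 1 (against 20.4%) and 6 without HE1 replicate 1 (against 22.8%).

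The fitted changes of the 4 genes that were not called varied as well. With 1 HE1 or HE2 library left out, the log2 fold change from HE1 to HE2 ran from −8.81 to −1.12 for Evx1, from −5.22 to −1.89 for Mesp1, from −3.19 to −0.81 for Gsc and from −1.50 to −0.53 for Mixl1. The value of −8.81 for Evx1, without HE2 replicate 1, and that of −5.22 for Mesp1, without HE2 replicate 2, each leave an HE2 library with 0 counts of the gene, and are no bound. The decreases from HB to HE1, in contrast, were called for all 6 genes without either HE1 library, and without replicate 2 the fitted changes ran from −9.77 for Mesp1 to −6.74 for Evx1, with −8.25 for Gsc. Without replicate 1 they ran from −8.87 for Mesp1 to −5.55 for Lhx1.

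**Figure D3:**
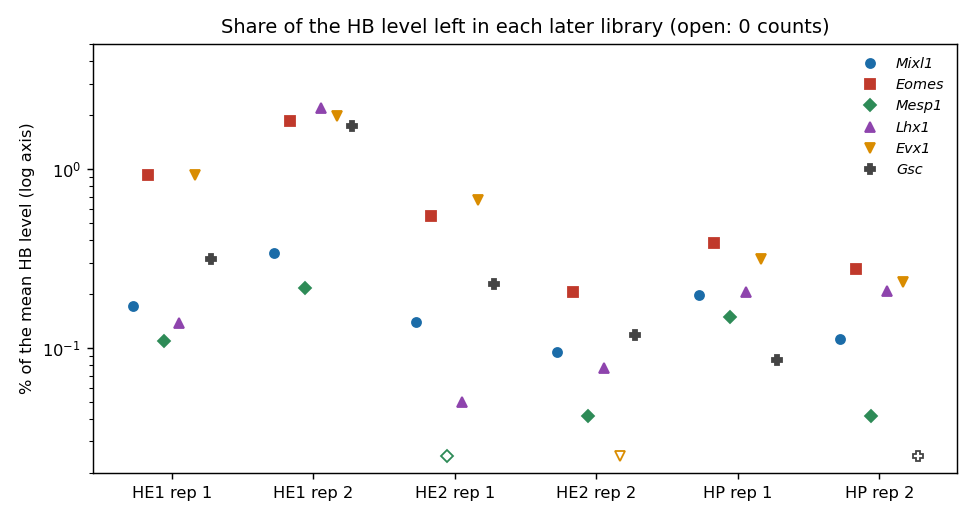
Level of each gene in the 6 HE1, HE2 and HP libraries as a percentage of its mean HB level (log axis); open symbols at the bottom are libraries with 0 counts. In HE1 replicate 2 the genes reach up to 2.19% (Lhx1), and in HE2 and HP every value is under 0.7%.

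Between HE2 and HP none of the 6 genes was called, but in this comparison edgeR with Benjamini-Hochberg adjustment called 0% of tested genes higher and 0% lower. At an unadjusted p under 0.05 there were 670 genes higher and 1113 lower, with limma-voom 35 and 27 were called, and with DESeq2 108 and 193. The differences were 0.43 with a 95% interval from −0.53 to 1.39 for Mixl1, −0.17 (−1.14 to 0.79) for Eomes, −0.29 (−2.27 to 1.70) for Evx1 and 1.68 (−1.19 to 4.54) for Lhx1, on the log2 scale. Lhx1 was higher in both HP libraries, 0.502 and 0.509 CPM, than in both HE2 libraries, 0.122 and 0.190 CPM. It passed the test when genes with low counts were not removed (1.67, edgeR, Benjamini-Hochberg adjusted p = 0.0165), and its adjusted p otherwise ran up to 1 over the alternatives. That setting is not on the scale of the main fit. For Lhx1 in HB against ES it gave an adjusted p of 1.91e-208, against 2.06e-05 with the filter (edgeR, Benjamini-Hochberg). Gsc, with 3 counts in HE2 and 1 in HP, and Mesp1, with 1 and 6, are given by their counts alone.

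At the end of the series the 6 genes in HP were compared with HB and with ES. All 6 were lower in HP than in HB, against 11.6% of tested genes called lower and 10.1% called higher, with log2 fold changes from −9.86 for Mesp1 to −8.22 for Eomes among the 5 genes with more than 1 count in HP. The value of Mesp1 rests on 5 and 1 counts in HP, and it was −11.07 without HP replicate 1, −9.34 without HP replicate 2 and −9.14 with a prior count of 2. Compared with ES, 3 of the 6 were called lower in HP, against 21.9% of tested genes called lower and 16.7% called higher. With 6 genes this count does not stand out from these shares, and it was 1 at a 4-fold threshold. The log2 fold change was −1.52 ± 0.40 for Eomes and −1.25 ± 0.35 for Mixl1 (edgeR, Benjamini-Hochberg adjusted p = 0.00917 and 0.0120). Gsc was called as well (edgeR, Benjamini-Hochberg adjusted p = 0.00176), and its 1 count in HP is 3.15% of the ES level with an exact 95% Poisson interval from 0.0798% to 17.6%. For Mesp1, Evx1 and Lhx1 the log2 differences were −0.70 (95% interval −2.04 to 0.63), −0.54 (−2.36 to 1.29) and 0.69 (−1.62 to 3.01), which were not distinguished from 0 at these counts. With 1 library left out they ran from −1.93 to −0.19 for Mesp1, from −0.79 to −0.19 for Evx1 and from 0.30 to 1.53 for Lhx1. Without HP replicate 2 only Gsc was called of the 6, and Mixl1 was not called without ES replicate 2 (edgeR, Benjamini-Hochberg adjusted p = 0.0681) or with limma-voom (0.0669).

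Other genes of the streak and of nascent mesoderm were taken from a list of 24 genes, of which 23 were tested. In HB, 17 were higher and 2 lower than in ES, against 11.5% and 17.3% of all tested genes, with a median log2 fold change of 3.10 against 0 over all tested genes. T (Brachyury), the T-box factor that marks the streak, rose from 4.47 and 5.31 CPM in ES to 148 and 123 CPM in HB (4.80 ± 0.38) and fell to 1.98 and 4.10 CPM in HE1 (−5.46 ± 0.40; edgeR, Benjamini-Hochberg adjusted p = 8.19e-06 and 1.41e-05). Fgf8, a growth factor that cells need to leave the streak, went from 1.47 and 1.58 CPM to 37.5 and 31.2 CPM and then to 0.421 and 1.06 CPM. Cyp26a1, which degrades retinoic acid, rose to 206 and 222 CPM in HB and was still at 32.3 and 45.7 CPM in HE1, and Wnt3, the Wnt ligand of the early streak, rose from 10.0 and 10.2 CPM to 101 and 116 CPM.

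From HB to HE1, 14 of these genes were lower and 1 was higher, against 8.19% and 12.7% of all tested genes, with a median of −2.94 against 0.04 over all tested genes. The median of the 6 transcription factors was −6.44. Without HE1 replicate 2 their fitted changes ran from −9.77 for Mesp1 to −6.74 for Evx1, and the median of the list is given with all libraries only. Rspo3, a secreted enhancer of Wnt signaling, was at 99.7 and 123 CPM in HB and 91.4 and 101 CPM in HE1 (−0.21 ± 0.25, not called), and it fell in HE2 to 45.6 and 27.9 CPM. Nkx1-2, a homeobox gene of the posterior embryo, was the 1 gene that rose, from 2.91 and 3.46 CPM to 6.39 and 7.63 CPM (1.14 ± 0.34; edgeR, Benjamini-Hochberg adjusted p = 0.0260), and the count of higher genes was 0 without HE1 replicate 2. In HE2 11 were lower than in HE1, against 5.39% of all tested genes. Without HE1 replicate 2, 1 gene of the list was called, against 1.1% of tested genes called lower, and without HE2 replicate 2 there were 2, against 0.401%, alternatives chosen after seeing the data. In that list 18 of 24 genes were higher in HE1 replicate 2 than in replicate 1.

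**Figure D4:**
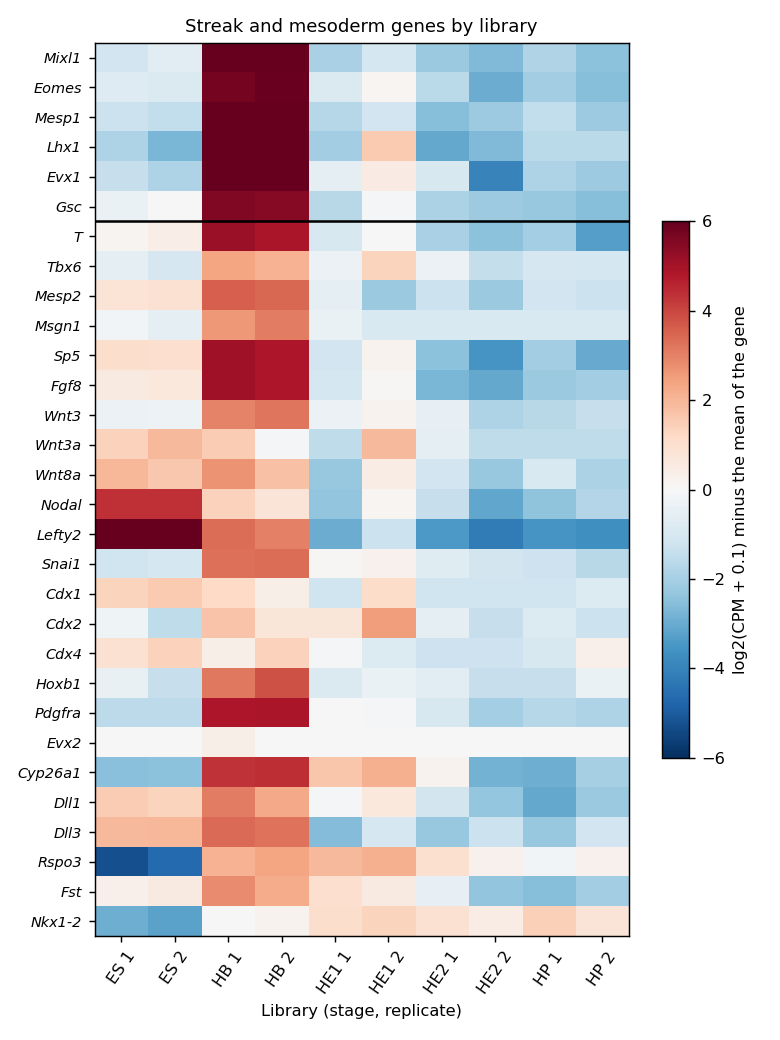
log2(CPM + 0.1) minus the mean of the gene, for the 6 transcription factors (above the line) and the 24 other streak and mesoderm genes in the 10 libraries; the color scale is clipped at 6 and −6. The 6 rows above the line are highest in both HB columns, Nodal and Lefty2 are highest in the ES columns, and Rspo3 stays high in HE1.

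The 2 genes of the list that were lower in HB were Nodal and Lefty2, the ligand that induces the streak and its feedback inhibitor. Nodal was at 130 and 132 CPM in ES and at 16.1 and 10.6 CPM in HB (−3.29 ± 0.62), and Lefty2 at 451 and 472 CPM in ES and at 54.2 and 43.3 CPM in HB (−3.24 ± 0.32; edgeR, Benjamini-Hochberg adjusted p = 0.00185 and 3.18e-05). HB is thus the stage in which the 6 factors were highest and the ligand was below its ES level. Of 14 genes that carry Nodal, BMP and Wnt signals into the cell or to DNA, 3 were higher in HB than in ES, against 11.5% of all tested genes. These were Foxh1, the DNA-binding partner of SMAD2 and SMAD3 (106 and 127 CPM against 42.2 and 44.1), Lef1, which binds β-catenin (85.6 and 94.2 CPM against 3.69 and 3.87), and the ligand Bmp4. From HB to HE1 6 of the 14 were lower, against 8.19% of all tested genes, and 5 without HE1 replicate 2. Among the 6 were Tdgf1, the Nodal co-receptor, at 305 and 353 CPM in HB and 0.883 and 9.05 CPM in HE1 (−6.01 ± 0.76), and Foxh1 (−2.69 ± 0.17; edgeR, Benjamini-Hochberg adjusted p = 0.000310 and 5.67e-06). Smad2, Smad3, Smad4 and Ctnnb1, the shared effectors, were not called in either comparison, and Smad4 was at 177 and 189 CPM in HB and 168 and 134 CPM in HE1.

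LHX1 acts with LDB1 and single-stranded DNA-binding proteins. Of 5 genes for such partners and regulators, 2 (Ssbp2 and Ssbp3) were higher in HB than in ES, against 11.5% of all tested genes, and 0 of 5 were called between HB and HE1, against 8.19% lower and 12.7% higher, so that with 5 genes this count is near the background. Ldb1 was at 174 and 150 CPM in HB and 224 and 140 CPM in HE1, where Lhx1 itself was at 0.137% and 2.19% of its mean HB level in replicates 1 and 2.

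Close paralogs and neighbors of the 6 genes were examined next. Of 6 paralogs, 5 were tested. Mesp2 was higher in HB (2.80 ± 0.70) and lower in HE1 (−5.74 ± 0.91; edgeR, Benjamini-Hochberg adjusted p = 0.00904 and 0.00116), and Tbr1, the T-box paralog of Eomes, was higher in HB at 1.92 and 2.06 CPM. Tbx21, another T-box paralog of Eomes, was low throughout, at 0.816 and 0.631 CPM in ES, 0.0331 and 0.113 CPM in HB, 0.421 and 0.793 CPM in HE1 and 0.0609 and 0.0952 CPM in HE2. It was called lower in HB than in ES, higher in HE1 than in HB and lower in HE2 than in HE1, the reverse of Eomes in the first 2 of these comparisons. Lhx5 was at 0.661 and 0.761 CPM in HB and Gsc2 at 0.231 and 0.0563 CPM, and neither was called in HB against ES or in HE1 against HB. Evx2, the paralog of Evx1, had 0 CPM in 9 libraries and 0.0331 CPM in HB replicate 1.

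Opposite-strand transcripts that overlap a gene or lie within 125 bases of it were called in HB against ES beside Evx1, Lhx1 and Gsc. Evx1os, which overlaps Evx1, was at 33.7 and 39.7 CPM in HB (7.60 ± 0.55 from ES to HB and −5.42 ± 0.49 from HB to HE1; edgeR, Benjamini-Hochberg adjusted p = 4.62e-06 and 3.94e-05). Lhx1os, which lies 125 bases from Lhx1, was at 2.58 and 2.79 CPM in HB and was called in both comparisons, with 3 and 1 counts in ES and 1 and 0 in HE1. Gm10000, 1 base from Gsc, was higher in HB at 1.16 and 0.845 CPM (4.38; edgeR, Benjamini-Hochberg adjusted p = 0.0204) and was not called between HB and HE1, and neither was Gm33460, which overlaps Eomes, in either comparison. Beside Mesp1, Mesp2 also lies on the opposite strand, as does Wdr93, 6291 bases away. Wdr93 was at 2.68 and 1.86 CPM in HB and 0.421 and 0.462 CPM in HE1, a log2 fold change of 0.77 from ES to HB that was not called and of −2.35 from HB to HE1 that was (edgeR, Benjamini-Hochberg adjusted p = 0.256 and 0.0100). Pairs were counted by strand, and a pair that overlapped several genes on its strand was counted on each. The coding neighbors Lin9, 2349 bases from Mixl1, and Aatf, 4762 bases from Lhx1, had log2 fold changes from ES to HB of −0.02 and 0.08 and were not called. Aatf was at 53.6 and 52.4 CPM in ES and at 55.6 and 56.7 CPM in HB.

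RefSeq promoters (GRCm38.p6) were held for 5 of the 6 genes, all but Mixl1, and the 250 bases before the start were searched on both strands for 8 short motifs of factors of this pathway. No motif was shared by 2 of the promoters. The promoter of Eomes holds a paired homeodomain site, the inverted repeat that factors like MIXL1 bind as dimers (0.463% of all 32851 promoters), that of Evx1 holds a SMAD motif on the minus strand (CAGACA, 17.1%), and that of Mesp1 holds a TCF/LEF motif (CTTTGAT, 3.21%). By the Ensembl genes used for the counts, most of the Mesp1 window (79793591 to 79793840) lies inside the gene, which starts at 79793788. The TCF/LEF match, 31 bases before the RefSeq start, lies inside the gene too. Part of the Gsc window also lies inside its gene, and the letters of both windows are not shown. The promoters of Lhx1 and Gsc hold none of the 8 motifs and are rich in CpG, with 26 and 22 CpG and ratios of observed to expected CpG of 0.991 and 1.06, against a median of 0.373 over all promoters. The Mesp1 window, which is mostly inside the gene, holds 2 CpG. A match is a run of letters and not a bound site. The promoters of Eomes (chr9:118477939-118478188, plus strand) and Evx1 (chr6:52313248-52313497, plus strand), with the matches in capitals, and of Lhx1 (chr11:84525535-84525784, minus strand), one of those rich in CpG, read as follows.
Eomes: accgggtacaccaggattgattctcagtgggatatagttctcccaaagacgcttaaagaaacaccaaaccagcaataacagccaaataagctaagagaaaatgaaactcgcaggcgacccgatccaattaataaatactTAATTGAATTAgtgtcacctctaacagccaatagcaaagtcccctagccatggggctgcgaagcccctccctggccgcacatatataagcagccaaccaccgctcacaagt
Evx1: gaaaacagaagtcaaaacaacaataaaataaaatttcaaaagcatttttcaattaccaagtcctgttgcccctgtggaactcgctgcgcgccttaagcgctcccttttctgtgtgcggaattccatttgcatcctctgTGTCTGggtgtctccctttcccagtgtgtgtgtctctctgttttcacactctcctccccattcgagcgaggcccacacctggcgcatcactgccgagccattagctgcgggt
Lhx1: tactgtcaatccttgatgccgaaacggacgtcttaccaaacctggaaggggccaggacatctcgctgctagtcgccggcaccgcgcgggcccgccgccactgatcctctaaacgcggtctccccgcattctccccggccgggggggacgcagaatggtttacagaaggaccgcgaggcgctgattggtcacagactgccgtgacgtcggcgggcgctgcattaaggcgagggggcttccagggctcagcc

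Genes with the most similar pattern were named by Pearson's r of log2 CPM over the 10 libraries, among 18724 tested genes with a stage mean of at least 1 CPM. The libraries of a stage share their state, so r is given as a description, and it is mostly set by the 2 HB libraries. The 6 genes correlated with each other at r from 0.923 (Lhx1 and Gsc) to 0.994 (Mixl1 and Mesp1). The closest genes were Pth1r for Mixl1 (0.994), Lmo1 and Wnt3 for Eomes (0.992 and 0.990), Mixl1 for Mesp1, Evx1os and Cer1 for Lhx1 (0.987 and 0.984), Col14a1 and Isl1 for Evx1 (0.989 and 0.978), and T and Vrtn for Gsc (0.992 and 0.991). For the mean of the 6 genes they were Pth1r, Axin2, Vstm2b, Ackr3, Zfp512, Optc, Tmem114, Lmo1, Bnc1 and Evx1os, at r from 0.993 to 0.985. A high r does not mean a large change. Zfp512 went from a mean of 57.9 CPM in ES to 87.3 CPM in HB and 58.0 CPM in HE1, whereas Vstm2b went from 0.923 to 172 and 2.42 CPM. Axin2, a feedback target of Wnt signaling, was at 19.3, 129 and 20.4 CPM.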

How the data were processed

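Nuclear RNA-seq libraries of 5 stages, 2 per stage, were analysed. The authors removed rRNA reads, used HISAT2 (v2.2.1) with mm10, and deposited raw counts per gene. Per the file headers, read pairs were counted with featureCounts (v2.0.1) on the exons of Ensembl release 102 in the reverse-stranded mode, with each gene credited where a pair touched more than 1. A second deposited table holds the authors' mean expression score of 15686 genes at every stage, lists all 6 genes and was used only to find them. Gene names were matched for 55141 of 55487 IDs.

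R (v4.3.3) and edgeR (v4.0.16) were used with filterByExpr, TMM (factors 0.954 to 1.13) and the quasi-likelihood F test. The design had a term for stage alone and all 10 libraries (5 residual degrees of freedom). CPM use the TMM library sizes. Log2 CPM for correlations used a prior count of 2. The model was tested on simulated data. The members and lists were chosen with earlier results of these data known. The genes named are the 6 members, examples from the lists, the 3 genes most like each member (the first 1 or 2 are given) and the 10 most like their mean. Alternatives were limma-voom (v3.58.1), DESeq2 (v1.42.0), its size factors, total counts, no filter, only the 2 stages compared, a 4-fold threshold, a replicate block and leaving out each library. Depth is given with the results. Python (v3.11.15) was used for positions, promoters and figures.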

Additional observations from a re-analysis of the deposited data

How the results depend on the processing

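The 6 increases from ES to HB and the 6 decreases from HB to HE1 and from HB to HP were called under every alternative, including each library left out in turn. With 1 library left out, the remaining library of that stage is assumed to vary like the other stages. Low counts, 7, 1 and 6 over both libraries of HE1, HE2 and HP for Mesp1 and 16, 3 and 1 for Gsc, limit what can be distinguished in the later stages.

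For HE2 against HE1, 2 of the 6 genes were called, 1 at a 4-fold threshold and with limma-voom, 4 with DESeq2, 5 without the filter, 0 with only the 2 stages compared, and 0 to 5 with 1 library left out (0 without HE1 replicate 2 or HE2 replicate 2, 5 without HE1 replicate 1, and 2 without HE2 replicate 1, where Lhx1 lost its call and Evx1 gained one). For HP against HE2, 0 were called and 1 without the filter. The p-values without the filter are not on the scale of the main fit, as given above for Lhx1. For HP against ES, 3 were called, 1 at 4-fold, and 1 to 3 with 1 library left out. Among changes that were not called, the log2 fold change from HE2 to HP turned with 1 library left out and ran from −0.075 (without HP replicate 1) to 0.75 for Mixl1, from −0.71 to 0.71 for Eomes (0.037 without HP replicate 2) and from −1.25 to 6.44 for Evx1, where limma-voom gave 1.50. The 6.44 was fitted without HE2 replicate 1, which leaves an HE2 library with 0 counts of Evx1, and is no bound. For the other values the cause was not tested.

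Over all tested genes, a 4-fold threshold left 4029 calls for HB against ES, 2594 for HE1 against HB, 901 for HE2 against HE1, 2972 for HP against HB and 5730 for HP against ES. HE1 against HB gave 2803 to 5553 with 1 library left out. HE2 against HE1 gave 1954 genes, 3818 without the filter, 535 with only the 2 stages, and 422 to 4295 with 1 library left out. HP against HE2 gave 0, 62 with limma-voom, 301 with DESeq2, 534 without the filter, and 0 to 525 with 1 library left out. The labels do not say whether same-numbered libraries of 2 stages share a culture, and the design did not pair them. The correlation of deviations between same-numbered libraries ran from −0.316 to 0.213 over 10 pairs of stages, which cannot decide this. With a replicate block 2 of the 6 genes were called for HE2 against HE1 and the counts of the 6 called genes were the same in all other comparisons, and the calls over all genes were 1417 for HE2 against HE1.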

Other observations

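Of 14 genes of the anterior streak and its endoderm, 12 were tested, and 8 were higher in HB than in ES and 2 lower, against 11.5% and 17.3% of all tested genes (edgeR, Benjamini-Hochberg). From HB to HE1 6 of the 12 were lower, 1 was higher and 5 were not called, against 8.19% of all tested genes lower and 12.7% higher. Cer1, a secreted Nodal inhibitor, had 0 CPM in both ES libraries, 2.61 and 3.04 CPM in HB, and 0 and 0.0991 CPM in HE1, and Cxcr4, a chemokine receptor, was at 75.3 and 96.5 CPM in HB and 0.421 and 3.01 CPM in HE1. Gata4, a GATA factor also used in the heart, was at 199 and 229 CPM in HB and 184 and 157 CPM in HE1 and was not called between them. Sox17, a factor of both endoderm and hemogenic endothelium, rose from 14.6 and 12.4 CPM in HB to 96.3 and 77.3 CPM in HE1. Otx2 was at 42.4 and 41.7 CPM in ES and 44.4 and 37.5 CPM in HB, and then fell to 0.168 and 3.47 CPM in HE1.

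Of 13 genes of lateral plate, cardiac and vascular precursors, 12 were higher in HB than in ES, against 11.5% of all tested genes. From HB to HE1 4 were lower (Etv2, Foxf1, Isl1 and Myocd), 3 higher (Gata5, Mef2c and Nkx2-5) and 6 not called, against 8.19% lower and 12.7% higher. Etv2, which directs mesoderm to the blood and vessel fates, was at 55.6 and 69.5 CPM in HB and 3.79 and 5.25 CPM in HE1. Hand1 and Hand2, factors of lateral mesoderm, were at 105 and 137 CPM and at 46.1 and 59.7 CPM in HB, and at 57.8 and 85.8 CPM and at 103 and 67.8 CPM in HE1. Mef2c, a MADS-box factor, was at 10.9 and 9.04 CPM in HB, 62.3 and 32.9 CPM in HE1, and 154 and 133 CPM in HP.

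Summed levels of lists for other cell types were 178 and 200.2 CPM in ES, 60.6 and 56.3 CPM in HB, 241 and 277 CPM in HE1, 161 and 104 CPM in HE2 and 85.7 and 82.6 CPM in HP for 8 neural genes. Of these 4 were tested, and Nes, which encodes the filament protein nestin, was the 1 gene called higher in HE1 (240 and 274 CPM) than in HB (59.5 and 55.9 CPM), and it makes up most of the sums (edgeR, Benjamini-Hochberg). The sums were 432 and 446 CPM in ES, 60.1 and 34.3 CPM in HB and 100.3 and 91.9 CPM in HE1 for 8 genes of visceral and definitive endoderm, and they were lower in each HE2 and HP library than in HE1. Sox17, named above, belongs to this list and holds 96.3 and 77.3 CPM of the HE1 sums, whereas Apob, Epcam and Hnf4a were called lower in HE1 than in HB. For 8 genes of paraxial mesoderm the sums ran from 3.75 to 27.5 CPM over the 10 libraries. Their part in the levels of the 6 genes was not tested.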
